A study of Homo sapiens with 6 samples.

Results

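miR-132 and miR-212 are a pair of microRNAs (miRNAs, short RNAs that silence messenger RNAs through base pairing with their seed) cut from neighbouring hairpins on the short arm of chromosome 17. Both arms of both hairpins are described here: miR-132-3p, miR-132-5p, miR-212-3p and miR-212-5p. They were taken by name from the deposited table of mature miRNAs, where they are 4 of 2656 entries, and all 4 had enough counts to be tested, among 783 miRNAs in all. The cells were KPL4, a long-established line from a human breast adenocarcinoma, with the gene of estrogen receptor β (ERβ, gene ESR2) knocked out. The first group, called ERβ cells below, held 3 small RNA libraries of knockout cells transfected with exogenous ERβ (ERβ libraries 1, 2 and 3), and the second held 3 libraries of knockout cells without it (knockout libraries S1, S2 and 3). Both groups thus carry the knockout, and both were grown in medium with serum, insulin and hydrocortisone. The comparison asks which miRNAs differ between cells with and without the receptor.

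The hairpins are transcribed together in many tissues, and the transcription factor CREB, which cAMP and calcium signals activate, is the best known inducer of the locus; in neurons the pair is induced by activity and by neurotrophins. miR-132-3p represses the Ras inhibitor RASA1 in endothelial cells. In mouse, loss of the family was reported to impair the outgrowth of mammary ducts, through the stroma, though reports differ.

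The mature sequences are shown because the 3p arms share a seed and the 5p arms do not. They are from RefSeq (GRCh38.p14, minus strand, 5′ to 3′), with the seed, bases 2 to 8, in capitals.
miR-132-3p: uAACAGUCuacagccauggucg
miR-212-3p: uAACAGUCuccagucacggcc
miR-132-5p: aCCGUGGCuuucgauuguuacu
miR-212-5p: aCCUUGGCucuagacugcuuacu

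Counted from the 5′ end, the 3p arms were identical over their first 9 bases and at 17 of 21 positions, the differences from miR-132-3p to miR-212-3p being A10C, C14U, U17C and U20C. Among 2370 mature names in RefSeq, no other miRNA had the seed of these 3p arms. The 5p arms matched at 14 of 22 positions, and G4U separates their seeds, which no other name in that set had. With 4 differences the 3p arms can be told apart by a full-length read, and all 24 deposited values of the 4 members (6 libraries each) were whole numbers.

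Both hairpins lie on chromosome 17, miR-132 at chr17:2049908-2050008 and miR-212 at chr17:2050271-2050380 (GRCh38, minus strand, the same in GENCODE release 29 and RefSeq), with 262 bases between them. GENCODE places no other gene over either, so they are intergenic there. The nearest protein-coding gene is HIC1, a tumour suppressor gene on the opposite strand that starts 3.77 kb away. Next are DPH1, a diphthamide synthesis gene, and OVCA2, both also on the opposite strand and ending 6.48 kb away. The hairpins are shown with their mature arms in capitals, the 5p arm first, since the arms are compared below.
MIR132: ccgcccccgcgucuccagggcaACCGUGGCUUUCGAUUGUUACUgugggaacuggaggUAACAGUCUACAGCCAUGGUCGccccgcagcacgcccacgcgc
MIR212: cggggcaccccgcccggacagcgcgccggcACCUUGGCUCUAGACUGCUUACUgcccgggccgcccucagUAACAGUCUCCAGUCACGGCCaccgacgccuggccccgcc

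Library totals ran from 10288415 to 14296902 counts in ERβ cells and from 10619000 to 12228519 in knockout cells. Knockout library S2 stood apart: a chi-square over the tested miRNAs, divided by its degrees of freedom, was 12.2 to 21.2 between ERβ libraries and 14.9 between knockout libraries S1 and 3, but 308 and 334 between S2 and these. All pairs differed by more than counting noise. Results of the pair and counts over lists are given with and without it. Whether replicates came from separate cultures is not stated, and p-values then cover only the spread among these libraries, which may be technical. Nor is it stated whether both groups come from the same knockout clone. An effect of ERβ and other differences between these cells cannot be told apart. Small RNA libraries hold no ESR2 messenger RNA, so the receptor itself gives no check of the labels.

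miR-132-3p was lower in ERβ cells, and the other 3 arms did not pass the test. Levels are in CPM (counts relative to the library total, with TMM scaling), and a call means a Benjamini-Hochberg adjusted p under 0.05 over all 783 miRNAs by edgeR's quasi-likelihood test. Of all tested miRNAs 23.1% were called, 13.3% lower and 9.83% higher. Against that background, 1 member of 4 called lower is not a result about the pair as a whole. Likewise 3 of 4 members had a log2 fold change below 0, as had 51.3% of all tested miRNAs. In bulk RNA, fewer cells that hold a miRNA and less of it per cell cannot be told apart.

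miR-132-3p, the arm with most reads, had 78.5, 75.2 and 74.2 CPM in ERβ libraries 1, 2 and 3, against 110.3, 82.3 and 105.4 CPM in knockout libraries S1, S2 and 3. All ERβ libraries lay below all knockout libraries, but S2 lay much nearer to the ERβ libraries than to its own group. The means were 76.0 ± 2.25 CPM in ERβ cells and 99.3 ± 14.9 CPM in knockout cells (SD, n = 3 each). This is a log2 fold change, ERβ over knockout, of -0.39 ± 0.12 (SE; 95% interval -0.66 to -0.11), so that the level fell by 23.5% (edgeR adjusted p = 0.0464). By p-value it was the last of the 181 miRNAs called, and 87 of the 104 called lower had larger falls.

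The call rested on the choice of libraries and scaling. Without S2 the log2 fold change was -0.51 ± 0.06 (edgeR adjusted p = 5.47e-07), and without any other library the call was lost, with adjusted p between 0.121 and 0.187 in edgeR. S2 is the knockout library nearest the ERβ libraries, so leaving it out removes spread that the p-value should measure. In that setting 279 of 800 tested miRNAs were called. Leaving out any library also leaves fewer libraries for the test. Scaling by upper-quartile factors (-0.27) or by library totals (-0.23) also ended it; these scalings put the median of all tested miRNAs at 0.10 and at 0.14, beside -0.01 with TMM. Relative to that median, miR-132-3p stood at -0.37 with TMM, -0.37 with upper-quartile factors and -0.37 with totals. A change of scaling moves all miRNAs by nearly the same amount. This sameness is therefore fixed in advance and does not show that the fall is robust to scaling. The number of miRNAs called higher and lower, 77 and 104 with TMM, was 123 and 70 with upper-quartile factors and 146 and 61 with totals.

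**Figure D1:**
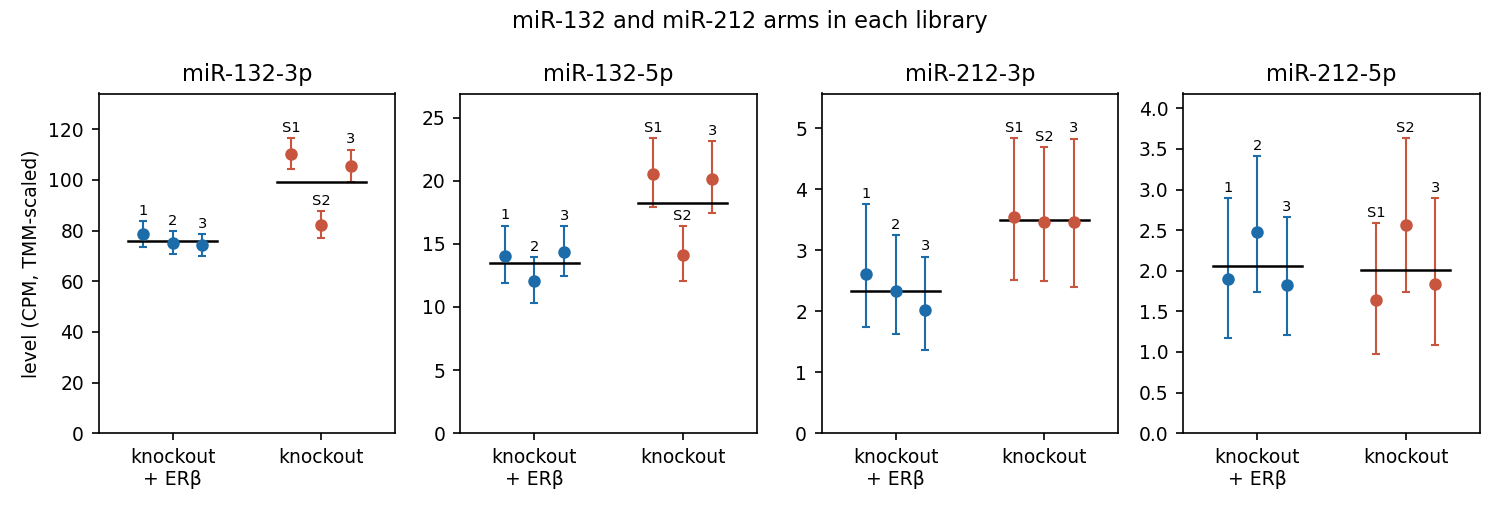
Level of each arm (CPM, linear axis from 0) in the 3 ERβ libraries (left, blue) and the 3 knockout libraries (right, red); points are libraries with exact 95% Poisson intervals, which cover counting error only, and black lines are group means. Knockout library S2 sits beside the ERβ libraries for both miR-132 arms (82.3 and 14.1 CPM) and with its own group for miR-212-3p (3.47 CPM).

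miR-132-5p, the less abundant arm of the same hairpin, had 14.1, 12.03 and 14.3 CPM in ERβ libraries 1, 2 and 3, against 20.5, 14.1 and 20.1 CPM in knockout libraries S1, S2 and 3. The groups overlapped at S2, whose level was inside the range of the ERβ libraries. The means were 13.5 ± 1.26 CPM in ERβ cells and 18.3 ± 3.59 CPM in knockout cells (SD, n = 3 each), a log2 fold change of -0.44 ± 0.17 that did not pass (edgeR adjusted p = 0.0917; unadjusted 95% interval -0.81 to -0.06). Without S2 it was -0.60 ± 0.12 and passed (edgeR adjusted p = 2.40e-04). That setting leaves out the knockout library that overlapped the ERβ libraries. Over the 6 libraries the log2 CPM of both miR-132 arms followed each other with Pearson r = 0.96, a description of libraries that share their depth and scaling.

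miR-212-3p, which has the seed of miR-132-3p, had 2.61, 2.34 and 2.03 CPM in ERβ libraries 1, 2 and 3, against 3.55, 3.47 and 3.46 CPM in knockout libraries S1, S2 and 3. The groups did not overlap, and S2 lay with the other knockout libraries. Every ERβ library lay below every knockout library in 20.9% of all tested miRNAs and above in 18.9%, together 39.8%; in the pair both 3p arms were separated, each with ERβ libraries below. The means were 2.33 ± 0.293 CPM in ERβ cells and 3.49 ± 0.0470 CPM in knockout cells (SD, n = 3 each). The log2 fold change was -0.59 ± 0.19, just short of the threshold (edgeR adjusted p = 0.0509; unadjusted 95% interval -1.02 to -0.16). With limma-voom it passed (-0.60 ± 0.19, adjusted p = 0.0450). With the DESeq2 test it was far from passing (-0.58 ± 0.33, adjusted p = 0.225). The same held with no filter on low counts (-0.55 ± 0.26, edgeR adjusted p = 0.235). Without S2 the log2 fold change was -0.60 ± 0.24 and did not pass (edgeR adjusted p = 0.0593).

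Counts limit what can be said of miR-212. miR-212-3p rested on 29 to 35 counts per ERβ library and 34 to 42 per knockout library, so counting alone gives a coefficient of variation of 17.9% in ERβ cells and 16.2% in knockout cells. The knockout libraries varied by 1.34%, far less than counting alone gives, so their SD understates the error of each value. For miR-132-3p, with 871 to 1125 counts per ERβ library and 996 to 1213 per knockout library, the observed variation was 2.97% in ERβ cells, where counting gives 3.11%, and 15.03% in knockout cells, where counting gives 3.04%.

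miR-212-5p, whose seed differs from that of miR-132-5p, had 1.89, 2.47 and 1.83 CPM in ERβ libraries 1, 2 and 3, against 1.64, 2.56 and 1.83 CPM in knockout libraries S1, S2 and 3. The groups overlapped throughout. The log2 fold change was 0.03 ± 0.26 (edgeR adjusted p = 0.933), with a 95% interval from -0.55 to 0.62. That interval leaves room for a difference in either direction, at 21 to 37 counts per ERβ library and 18 to 31 per knockout library. Its sign was negative without ERβ library 2 (-0.09), knockout library S1 (-0.10) or knockout library 3 (-0.03). Without S2 the log2 fold change was 0.26 ± 0.30 (edgeR adjusted p = 0.534).

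**Figure D2:**
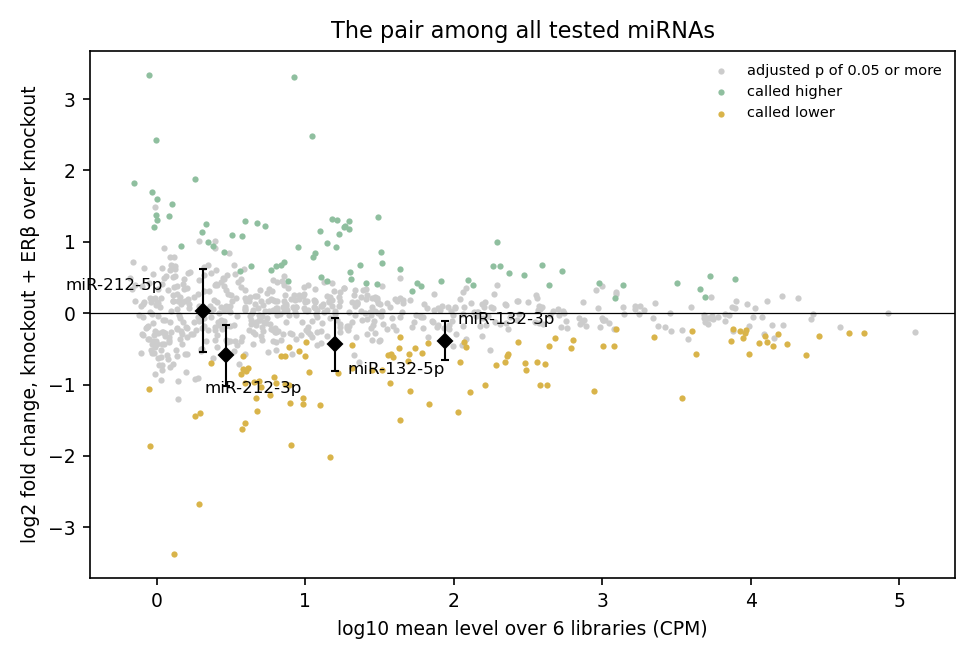
Log2 fold change (ERβ over knockout) against the log10 of the mean level in CPM for all 783 tested miRNAs; grey points were not called, green were called higher and yellow lower, and black diamonds with 95% intervals are the 4 arms. The interval widens from miR-132-3p (-0.66 to -0.11) to miR-212-5p (-0.55 to 0.62) as the level drops.

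The pair was of modest abundance and dominated by miR-132. In order of level the arms ran miR-132-3p, miR-132-5p, miR-212-3p and miR-212-5p. The last neighbours in this order, miR-212-3p and miR-212-5p, overlapped between their ERβ libraries, while in knockout libraries every miR-212-3p level exceeded every miR-212-5p level. Among the 783 tested miRNAs, miR-132-3p ranked 203 to 205 in ERβ libraries and 186 to 205 in knockout libraries, and miR-212-3p ranked 580 to 615 in ERβ libraries and 533 to 547 in knockout libraries. miR-132-3p alone held 80.3 to 81.7% of the counts of the pair in ERβ libraries and 80.3 to 81.1% in knockout libraries. Mature miRNAs of 21 to 23 bases differ little in length, but library kits capture sequences unequally, and the part of this in the order of levels was not tested.

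The ratio of miR-132-3p to miR-212-3p needs no scaling between libraries. It averaged 5.01 ± 0.144 on the log2 scale in ERβ cells and 4.80 ± 0.216 in knockout cells (SD, n = 3 each). The groups overlapped, with a difference of 0.21 (exact two-sided permutation test, p = 0.3, adjusted p = 0.45 over 3 ratios; the smallest p this design allows is 0.1). This test cannot pass at this size, so whether the log2 fold changes of the 3p arms, -0.39 and -0.59, differ is not settled by it.

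Arm usage differed between the hairpins more than between the groups. The 5p arm of miR-132 took 15.2, 13.8 and 16.2% of the counts of both arms in ERβ libraries 1, 2 and 3, against 15.7, 14.7 and 16.0% in knockout libraries S1, S2 and 3. The groups overlapped, with a difference in mean log2 ratio of 5p to 3p of -0.05 (exact two-sided permutation test, p = 0.7, adjusted p = 0.7). S2, which stood apart in the level of both miR-132 arms, had the arm ratio of the other libraries, with a Wilson 95% interval of its share from 12.7 to 16.8%.

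In miR-212 the 5p arm was the more frequent arm only in ERβ library 2. It took 42.0, 51.4 and 47.4% of counts in ERβ libraries 1, 2 and 3, against 31.6, 42.5 and 34.6% in knockout libraries S1, S2 and 3. The means were 46.9 ± 4.71% in ERβ cells and 36.2 ± 5.62% in knockout cells (SD, n = 3 each), and S2 exceeded ERβ library 1, so the groups overlapped. The difference in log2 ratio was 0.63 (exact two-sided permutation test, p = 0.2, adjusted p = 0.45). With 50 to 73 counts of both arms per library, the Wilson 95% intervals were wide, from 21.0 to 44.5% in knockout library S1 and from 40.1 to 62.6% in ERβ library 2.

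Among 209 miRNAs with both arms tested, the median size of this shift was 0.17, and the shift of miR-212 was the 17th largest and that of miR-132 the 173rd. This ranking pools hairpins of unlike depth, and few counts widen the counting error of a shift. The weaker arm averaged 25.3 counts for miR-212 and 190.5 for miR-132. A ranking among hairpins of like depth was not made. In 35 of the 209 (16.7%) the groups did not overlap; neither hairpin of the pair was among them.

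**Figure D3:**
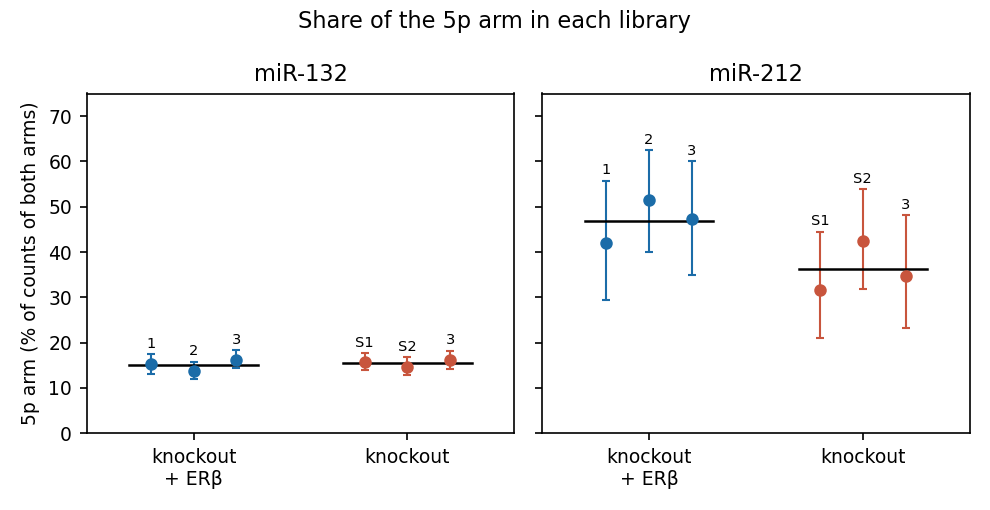
Share of the 5p arm in the counts of both arms (%, axis from 0) for miR-132 (left) and miR-212 (right), in ERβ (blue) and knockout (red) libraries; bars are Wilson 95% intervals of counting error and black lines group means. miR-132 lies between 13.8 and 16.2% in all 6 libraries, while miR-212 lies between 31.6 and 51.4% with wide intervals.

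The short arm of chromosome 17 held 14 other tested miRNAs with a single RefSeq locus. None was called higher and 4 were called lower, beside 13.3% of all tested miRNAs called lower, and their median log2 fold change was -0.16, beside -0.01 for all tested. With library totals 0 were higher and 3 lower and the median was -0.02. Without S2 there were 5 lower and a median of -0.09, and without each other library in turn 3 lower. The median was -0.27 without knockout library S1 and -0.26 without knockout library 3. Among all tested miRNAs 61 of 783 were lower with totals and 157 of 800 without S2. Without each other library 58 to 88 were lower, among 800 to 815. The nearest were the arms of miR-22, a repressor of ESR1, 336 kb from the pair. miR-22-3p had 1045, 992 and 979 CPM in ERβ libraries 1, 2 and 3, against 1436, 1380 and 1330 CPM in knockout libraries S1, S2 and 3. The groups did not overlap and S2 lay between the other knockout libraries; the log2 fold change was -0.46 ± 0.07 (edgeR adjusted p = 0.00140), while miR-22-5p, at -0.38 ± 0.15, did not pass.

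The largest falls on the arm belonged to miR-195-5p and miR-497-5p, cell-cycle inhibitors of one cluster. miR-195-5p averaged 254 ± 5.61 CPM in ERβ cells and 509.7 ± 16.9 CPM in knockout cells (SD, n = 3 each), and miR-497-5p averaged 310.5 ± 10.5 CPM in ERβ cells and 509.7 ± 7.56 CPM in knockout cells. The fourth was miR-497-3p (-0.61 ± 0.19), named after its value was seen. The remaining 10 did not pass; miR-4521, also named after its value was seen, was at 0.04 ± 0.07.

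**Figure D4:**
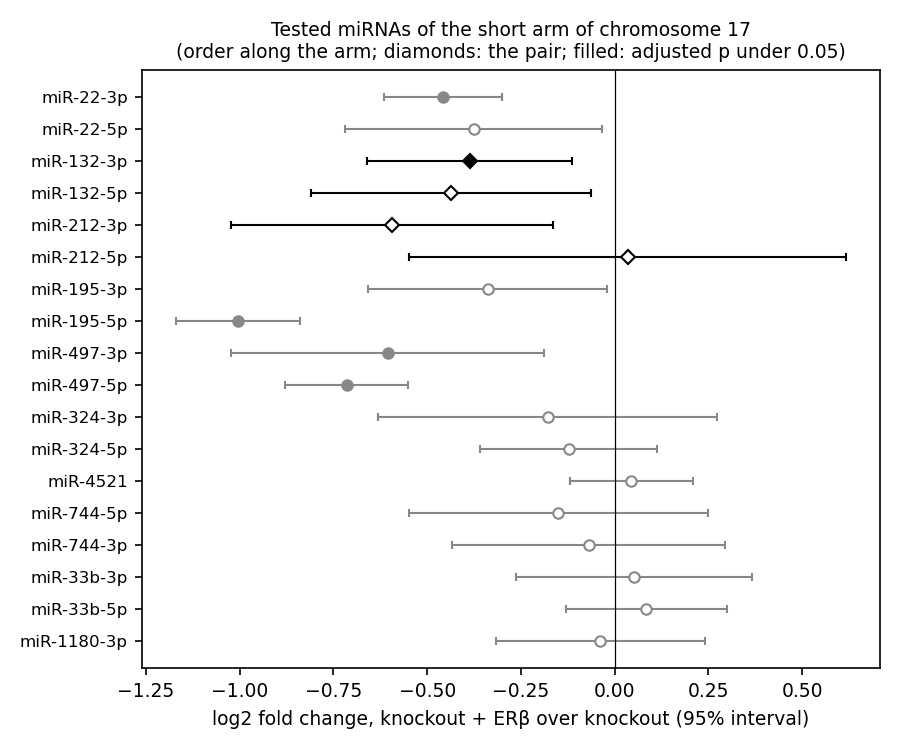
Log2 fold change (ERβ over knockout) with 95% interval for the 18 tested miRNAs of the short arm of chromosome 17, from the tip of the arm at the top; diamonds are the pair, circles the others, and filled symbols have an adjusted p under 0.05. miR-22-3p (-0.46), miR-195-5p and both miR-497 arms (miR-195-5p at -1.0) are lower, beside miRNAs near 0 such as miR-4521 (0.04).

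A list of 13 miRNAs described as responding to CREB or neuronal activity, or as targeting CREB1, was examined beside the pair; it sets no direction for its members. Of 12 tested, 0 were higher and 4 lower, beside 9.83% higher and 13.3% lower of all tested miRNAs. Their median log2 fold change was -0.26, beside -0.01 for all tested. It was -0.15 with upper-quartile factors and -0.10 with totals, beside 0.10 and 0.14 for all tested. The list shares miR-200b-3p with the breast epithelial markers below. With either upper-quartile factors or totals, 2 were higher and 3 lower. Among all 783 tested, the first scaling had 123 higher and 70 lower, and the second 146 higher and 61 lower. Without S2 the counts were 2 higher and 8 lower, where 122 higher and 157 lower were called among all 800 miRNAs tested. Without each of the other libraries in turn they were 0 higher and 2 lower, where 49 to 71 higher and 58 to 88 lower were called among 800 to 815 tested.

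The most abundant of the list were the arms of miR-9, a neuronal miRNA in a feedback loop with CREB, and miR-182-5p of the sensory miR-183 cluster. miR-9-3p fell (-0.28 ± 0.08, edgeR adjusted p = 0.0387), while miR-9-5p (-0.19 ± 0.08) and miR-182-5p (0.17 ± 0.07) did not pass. The other members called lower, named after their values were seen, were miR-184 (-0.77 ± 0.13), miR-34c-5p (-0.49 ± 0.12) and miR-146a-5p (-1.50 ± 0.10), the last an NF-κB feedback inhibitor. miR-134-5p, a dendritic miRNA of the 14q32 cluster, also singled out after its value was seen, had a positive value that did not pass (0.53 ± 0.17, edgeR adjusted p = 0.0505).

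Neuron-enriched miRNAs, a list that shares 4 tested names with the CREB list, had 0 higher and 2 lower of 9 tested. The lower ones were miR-9-3p and miR-129-5p, and the median was -0.09. Of all tested miRNAs 9.83% were higher and 13.3% lower. Scaled by upper quartiles the median was 0.02, and scaled by totals 0.07, each with 1 higher and 0 lower. Among all 783 tested, 123 were higher and 70 lower with upper quartiles, and 146 higher and 61 lower with totals. Without S2 the counts were 1 higher and 4 lower and the median -0.26, where 122 higher and 157 lower were called among all 800 tested. Without each ERβ library or knockout library S1 none was called, and without knockout library 3 there were 0 higher and 1 lower with a median of 0.05. In these settings 49 to 71 higher and 58 to 88 lower were called among 800 to 815 tested. miR-128-3p, the third most abundant of the list, was at -0.06 ± 0.09.

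Breast epithelial markers were abundant. All 8 were tested, 1 higher and 4 lower (of all tested miRNAs 9.83% were higher and 13.3% lower), with a summed level of 93312 to 98066 CPM in ERβ libraries and 94615 to 110661 CPM in knockout libraries. The lower count was 1 with upper-quartile factors, with library totals and without each ERβ library in turn, 2 without knockout library S1 or 3, and 6 without S2. Among all tested miRNAs it was 70 of 783 with upper-quartile factors and 61 of 783 with totals. It was 58 to 62 of 800 to 811 without an ERβ library. Without knockout libraries S1, 3 and S2 it was 81 of 813, 88 of 815 and 157 of 800. A further list of 6 neuronal markers leaves out the abundant miR-9 arms and miR-128-3p above, with which the neuron-enriched list summed to 49610 to 51170 CPM in ERβ libraries and 52733 to 60791 CPM in knockout libraries. The defining neuronal miR-124-3p had no count in ERβ libraries and at most 0.99 in a knockout library. miR-137-3p had at most 1 count in an ERβ library and none in a knockout library. Of the 6, 4 were tested and 1, miR-129-5p, was lower (-0.45 ± 0.13), beside 13.3% of all tested miRNAs. The lower count of these markers stayed at 1 without S2 or knockout library 3. It was 0 with upper-quartile factors, with library totals, without each ERβ library and without knockout library S1. The 4 summed to 241 to 254 CPM in ERβ libraries and 209 to 262 CPM in knockout libraries. Blood markers, 3 of 6 tested and none called with or without S2, summed to 17.5 to 20.4 CPM in ERβ libraries and 15.5 to 21.3 CPM in knockout libraries.

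Of 6 endothelial and stromal markers, 4 were tested and 2 were lower, miR-126-3p (-0.30 ± 0.06) and miR-143-3p (-1.15 ± 0.15), beside 13.3% of all tested miRNAs. The other tested markers, miR-126-5p (-0.08 ± 0.09) and miR-199a-5p (-0.40 ± 0.22), did not pass. There was 1 lower with upper-quartile factors, with library totals and without ERβ library 1 or 2, and 3 were lower without S2. In the same order, 70 of 783, 61 of 783, 58 of 811, 60 of 808 and 157 of 800 tested miRNAs were lower. The 4 summed to 18139 to 20029 CPM in ERβ libraries and 21633 to 23191 CPM in knockout libraries, nearly all of it from the miR-126 arms, while miR-145-5p had at most 4 counts in an ERβ library and 6 in a knockout library and miR-214-3p at most 1 in an ERβ library and 2 in a knockout library. All libraries are labelled as KPL4 cells, so these names are not shown to mark endothelial or stromal cells here. The part of these miRNAs in the fall of miR-132-3p was not tested.

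The miRNAs whose profiles most resembled those of the pair were sought among those averaging at least 10 CPM, by Pearson r of log2 CPM (prior count 2) over the 6 libraries. For miR-132-3p they were miR-181c-5p (r = 0.99), miR-9-3p (0.98), miR-190a-5p (0.98), miR-221-3p (0.98) and miR-9-5p (0.96). In each of these 5, S2 was the lowest knockout library, as in miR-132-3p itself, the profile they were chosen to match. In miR-190a-5p, for example, the levels were 227, 238 and 232 CPM in ERβ libraries 1, 2 and 3, against 334, 259 and 330 CPM in knockout libraries S1, S2 and 3. miR-190a-5p fell (-0.41 ± 0.11, edgeR adjusted p = 0.0238), whereas miR-181c-5p (-0.45 ± 0.17) did not pass.

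For miR-212-3p the most alike were miR-1468-5p (r = 0.98), miR-181a-5p (0.98), miR-222-3p (0.97), miR-375-3p (0.97) and miR-22-3p (0.97), and none is in the set of miR-132-3p. In miR-222-3p, S2 lay with the other knockout libraries. It had 572, 551 and 536 CPM in ERβ libraries 1, 2 and 3, against 713, 732 and 697 CPM in knockout libraries S1, S2 and 3. The profile of miR-212-3p itself carries wide counting error, so its neighbours are less certain than those of miR-132-3p. The log2 CPM of miR-132-3p and miR-212-3p were related with r = 0.81 over the 6 libraries. These values describe libraries that share their scaling and the group difference.

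**Figure D5:**
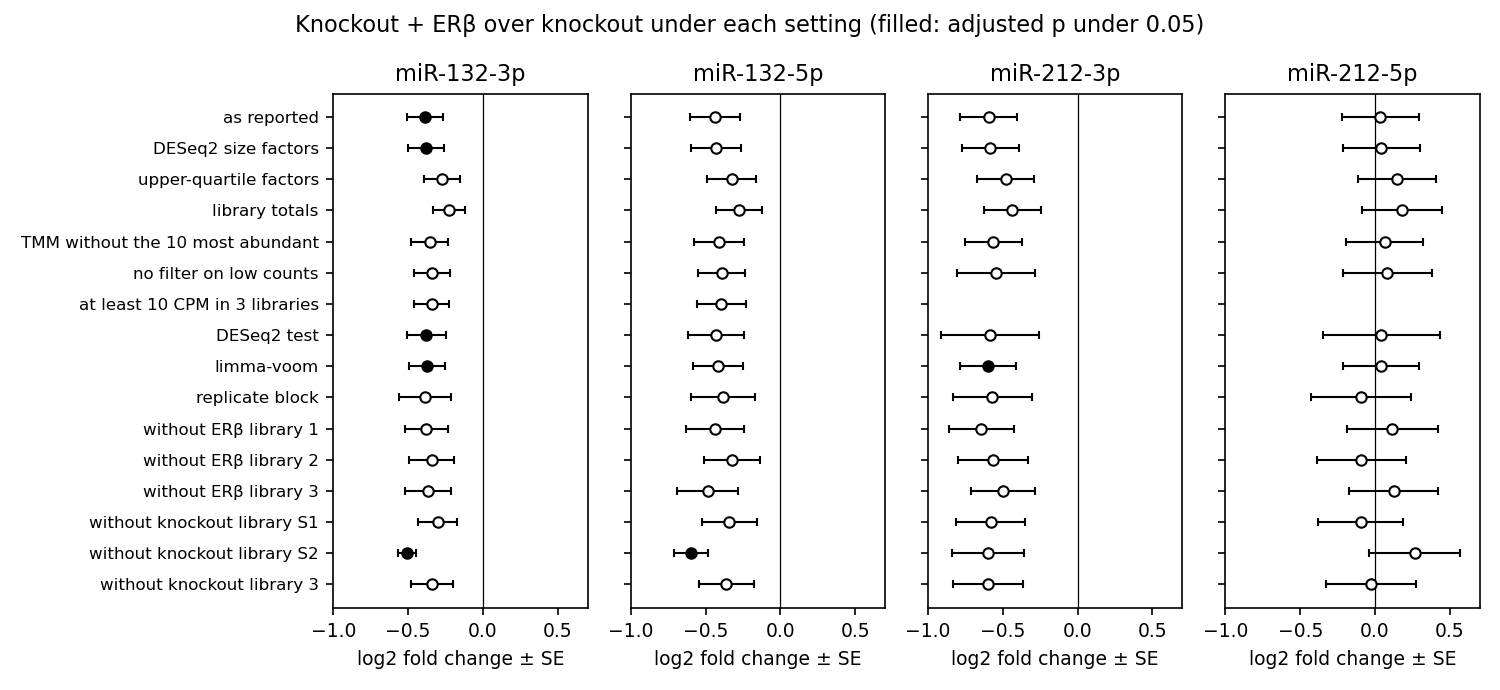
Log2 fold change ± SE (ERβ over knockout) of each arm as reported and under each alternative setting; filled points have an adjusted p under 0.05. The 3p arms and miR-132-5p are below 0 in every setting shown, miR-132-3p between -0.51 and -0.23, and miR-212-5p changes sign.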

How the data were processed

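Small RNA of KPL4 cells was sequenced after QIAseq miRNA library preparation, per the labels' protocols. Per the submitters' processing notes, FastQC, Trim Galore and GRCh38 were used. No aligner, counting tool, annotation release or handling of molecular identifiers is stated in those notes or the labels. For each mature miRNA the authors deposited an expected count per library, and 6.33 to 7.27% of the values per library are not whole. ERβ columns match samples by number. Of the knockout columns 2 carry the number 1 and are known by group only (S1 and S2, after their index).

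Expected counts were rounded to whole numbers. The test was edgeR's (4.0.16, R 4.3.3) robust quasi-likelihood test with TMM after filterByExpr (minimum count 10, total 15; Benjamini-Hochberg adjustment over 783 miRNAs), without covariates. SEs of log2 fold changes were derived from the F statistic. In each library 3 counts equal 0.201 to 0.305 CPM. Ratios of arms used counts plus 0.5. Poisson and Wilson intervals cover counting error only; those of log2 fold changes use the edgeR SE over libraries. The fit was repeated with 4 other scalings and 2 other filters, with DESeq2 1.42.0 and limma-voom (limma 3.58.1), with a replicate block, and without each library in turn. Figures were drawn with matplotlib 3.10.9.

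Named miRNAs are the members, their seed relatives, the 5 most alike profiles of each 3p arm, miRNAs within 1 Mb and the 3 most abundant of each list; all others, including the markers given for their low counts, were named after their values were seen. Members and lists were chosen with earlier results of these data known. Of tested names 690 of 783 were matched in RefSeq, 634 to a single locus; the short arm of chromosome 17 was taken as its first 22 Mb.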

Additional observations from a re-analysis of the deposited data

How the results depend on the processing

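miR-132-3p kept its direction in 15 of 15 alternatives and its call in 4: DESeq2 size factors, the DESeq2 test, limma-voom and without knockout library S2. The call was lost with upper-quartile factors (-0.27), library totals (-0.23), no filter (-0.34), TMM leaving out the 10 most abundant miRNAs (-0.36) and the filter of 10 CPM in 3 libraries (-0.34), with adjusted p between 0.0504 and 0.157 in edgeR; the cause was not tested. With a library left out its log2 fold change ran from -0.51 to -0.30. miR-132-5p ran from -0.60 to -0.32 and was called only without S2. miR-212-3p kept its direction in 14 of 14 alternatives and was called only with limma-voom (-0.60); it ran from -0.64 to -0.50 with a library left out. miR-212-5p was not called in any of 14 and ran from -0.10 to 0.26 with a library left out. Neither miR-212 arm passes the filter of 10 CPM. The arm difference of miR-132 ran from -0.11 to 0.025, that of miR-212 from 0.49 to 0.82 and the difference in the 3p ratio from 0.09 to 0.28. In the same order these were -0.09, 0.82 and 0.09 without S2.

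Of all tested miRNAs 181 were called, and 111 to 279 with a library left out: 111 without ERβ library 1, 112 without ERβ library 2, 111 without ERβ library 3 and 279 without knockout library S2. The replicate numbers in the column names (1, 1 and 3 for knockout) do not establish pairs: the deviations of same-numbered libraries correlated at -0.10 and 0.13 for number 1 and 0.12 for number 3. With the number as a replicate block, 88 miRNAs were called and no member was. miR-132-3p was at -0.39, miR-132-5p at -0.38, miR-212-3p at -0.57 and miR-212-5p at -0.092. In that fit S1 and S2 shared a block with ERβ library 1. ERβ library 2 was alone in its block, so it added nothing to the difference between groups. Fewer degrees of freedom were also left for the error, so its calls are not comparable with those of the main fit. Depth limits the miR-212 arms, at 18 to 42 counts per library.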
